A study of Mus musculus with 4 samples.

Results

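The NF-kB feedback and early cytokine genes described here are Nfkbia, Nfkbiz, Nfkb1, Rel, Tnfaip3, Tnf, Osm, Pim1, Zfp36 and Ier3, which are 10 of the 12596 genes in a table of unique molecular identifiers (UMIs) from single cells of mouse colon. Each of the 10 was found on 1 row of the table by its Ensembl identifier. On GRCm38, Nfkbia lies at chr12:55489409-55492647, Tnfaip3 at chr10:19000910-19015410, Osm at chr11:4236785-4241026 and Pim1 at chr17:29490785-29496111. The genes were chosen by name when results of these data, DEP against PBS included, were already known, and the cell classes were selected on their UMIs of Plac8 and of C1qa, C1qb and C1qc. Male C57/Bl6N mice were given by gavage, on 5 days per week for 6 months, either 12 µg of diesel exhaust particles (DEP) in 200 µL of phosphate-buffered saline (PBS) or PBS alone. Cells of the colon lamina propria that were CD11b+ and Ly6C+ or CD64+ were sorted, and RNA at the 3' end of transcripts was counted by droplet sequencing in 2 DEP mice (labelled 14 and 15) and 2 PBS mice (labelled 2 and 3). Each mouse was 1 library from 1 well, so mouse and well cannot be told apart.

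NF-kB is a family of dimeric transcription factors that inhibitors hold in the cytoplasm of resting cells. Ligands of toll-like, interleukin-1 and tumor necrosis factor receptors lead to the loss of the inhibitor, the dimer enters the nucleus, and among the first genes it turns on are cytokines and its own brakes. In the colon, monocytes enter from blood and mature into macrophages, and it is the mature macrophages that are known for a muted response to bacterial products. Of the genes here, Nfkbia encodes the inhibitor IkB-alpha, Nfkbiz the nuclear co-regulator IkB-zeta and Tnfaip3 the ubiquitin-editing enzyme A20. Nfkb1 and Rel encode subunits of the dimers. Tnf and Osm encode the cytokines tumor necrosis factor and oncostatin M, Zfp36 the RNA-binding protein tristetraprolin that destabilises cytokine mRNAs, Pim1 a cytokine-induced kinase and Ier3 an immediate early protein.

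Sequence upstream of the genes was looked at because the dimers bind kB sites. RefSeq promoter windows (GRCm38.p6, 250 bases before to 50 bases after the start) matched 7 members: Nfkbia, Rel, Tnfaip3, Tnf, Pim1, Zfp36 and Ier3, with 2 starts each for Tnfaip3 and Pim1. The kB consensus was searched on both strands. It was found in 4 of the 9 member windows, those of Nfkbia, Rel, Ier3 and the first Tnfaip3 start, and in 4.51% of all 32851 windows of this length. The 250 bases before the start are shown for Nfkbia (chr12:55492648-55492897, minus strand) and for the first Tnfaip3 start (chr10:19015411-19015660, minus strand), since these were among the genes that varied together most across single cells, with matches in capitals and each sequence written 5′ to 3′ on the gene's strand.
Nfkbia: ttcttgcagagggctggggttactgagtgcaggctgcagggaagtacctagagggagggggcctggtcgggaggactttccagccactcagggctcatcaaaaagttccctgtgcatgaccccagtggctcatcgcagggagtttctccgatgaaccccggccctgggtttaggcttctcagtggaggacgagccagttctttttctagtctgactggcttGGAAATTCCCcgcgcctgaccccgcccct
Tnfaip3: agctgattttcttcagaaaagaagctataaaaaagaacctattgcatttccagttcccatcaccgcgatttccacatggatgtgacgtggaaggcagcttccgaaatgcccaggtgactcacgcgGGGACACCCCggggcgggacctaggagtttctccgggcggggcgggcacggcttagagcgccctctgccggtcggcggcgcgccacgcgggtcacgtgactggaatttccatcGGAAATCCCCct
Stretches of 30 bases or fewer around the matches are shown for Rel and Ier3, whose matches lie at chr11:23771052-23771061 and chr17:35821621-35821630 (minus and plus strand).
Rel: cgtaagcagcGGGAAATCCCCccccctccc
Ier3: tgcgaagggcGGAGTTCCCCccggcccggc
In Rel 2 matches overlap by all but 1 base. The match began 29 bases before the start in Nfkbia, 92 before it in Rel and in Ier3, and 125 and 12 before it in Tnfaip3. The windows of Tnf, Pim1, Zfp36 and the second Tnfaip3 start held no match, which says only that these letters are not in those windows. A match is a description of sequence and no measure of binding.

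After 63 cells with markers of other lineages were left out (45 of them B or plasma cell-like), 880 cells remained, 174 and 309 in DEP mice 14 and 15 and 188 and 209 in PBS mice 2 and 3. Their summed UMIs were 669638 to 1213192 per mouse, and the median per cell was 2644 in PBS mouse 2 and 3394 to 4629 in the others. One barcode of the table occurred in 2 mice, and the others were distinct. Plac8-high cells (2 or more Plac8 UMIs) numbered 47, 73, 35 and 32 in mice 14, 15, 2 and 3, and C1q-high cells (C1qa, C1qb and C1qc at 0.5% or more of the cell's UMIs) numbered 142, 240, 168 and 180. Of these, 52 cells were in both classes and 15 retained cells were in neither. The Plac8-high class was made up differently in the 4 mice, since 16 of 47, 10 of 73, 19 of 35 and 7 of 32 of its cells were also C1q-high in mice 14, 15, 2 and 3. Its 13 monocyte markers include Plac8, which defines the class. They summed to 9339 CPM in PBS mouse 2 and to 14623 to 16148 CPM in the other mice. Each DEP against PBS value in Plac8-high cells thus compares classes of unlike make-up. Plac8-high cells that were not C1q-high carried the monocyte genes Ly6c2 (755 CPM, UMIs per 1000000 UMIs of the library, against 4.51 in C1q-high cells that were not Plac8-high) and Ccr2 (783 against 188), and the C1q-high cells the macrophage genes Apoe (42740.0 against 5424) and Cd81 (2593 against 118). All 15 macrophage markers together, C1qa, C1qb and C1qc included, lay closer. They summed to 47359 to 64823 CPM per mouse in the former cells and 81171 to 83126 CPM in the latter. Summed markers of other lineages reached at most 19.4 CPM for T cells, 29.1 CPM for epithelium, 58.4 CPM for stroma or endothelium, 82.4 CPM for natural killer or innate lymphoid cells, 180 CPM for granulocytes or mast cells, 280 CPM for B or plasma cells and 366 CPM for dendritic cells in any library of either class.

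No member passed the test of DEP against PBS in any cell set. In edgeR's quasi-likelihood test with Benjamini-Hochberg adjustment over all genes, 1 of 5537 genes passed at an adjusted p under 0.05 over all retained cells (0.0181%), 0 of 4930 in Plac8-high cells (0%) and 0 of 5633 in C1q-high cells (0%). At an unadjusted p under 0.05 the numbers of genes were 365, 273 and 325, and 1 member, Pim1, was among them in each cell set. DESeq2 called 1, 0 and 0 genes, none of them a member. The medians of the 10 members were -0.06, 0.08 and -0.10 on the log2 scale, beside medians of all tested genes within 0.01 of 0 (-0.0059, -0.00015 and -0.0010). Without the cells of both classes no member passed in Plac8-high cells either (smallest adjusted p = 0.423, edgeR), with larger log2 fold changes for Nfkb1 (1.31), Rel (0.93) and Ier3 (-0.81) and a smaller one for Tnfaip3 (-0.059). The median SE of the members was 0.32 in Plac8-high cells and 0.19 in C1q-high cells, so a difference of a given size was harder to detect in the Plac8-high class. An exact permutation test of 2 mice against 2 cannot go below a two-sided p of 0.333.

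Among the brakes, Nfkbia was measured in Plac8-high cells at 2458 and 4044 CPM in DEP mice 14 and 15 and 2279 and 2668 CPM in PBS mice 2 and 3, all on the TMM (trimmed mean of M-values) scale. DEP mouse 15 stood above both PBS mice and DEP mouse 14 lay between them (log2 fold change 0.40, SE 0.25, adjusted p = 0.916). In C1q-high cells Nfkbia was at 1587 and 2599 CPM in DEP mice 14 and 15 and 2053 and 2014 CPM in PBS mice 2 and 3. Here the 2 DEP mice lay on either side of the PBS mice, which were close to each other, and the interval of the log2 fold change ran from -0.31 to 0.40. Nfkbiz was at 544 and 746 CPM in DEP mice 14 and 15 and 465 and 738 CPM in PBS mice 2 and 3 in Plac8-high cells (log2 fold change 0.10, SE 0.28, adjusted p = 0.967). In C1q-high cells it was at 599 and 659 CPM in DEP mice 14 and 15 and 578 and 678 CPM in PBS mice 2 and 3, with a log2 fold change of 0.0013 and an interval of -0.28 to 0.28. The groups overlapped for Nfkbiz in both classes. Tnfaip3 was at 83.7 and 325 CPM in DEP mice 14 and 15 and 366 and 193 CPM in PBS mice 2 and 3 in Plac8-high cells (log2 fold change -0.39, SE 0.47, adjusted p = 0.954). In C1q-high cells it was at 195 and 321 CPM in DEP mice 14 and 15 and 331 and 313 CPM in PBS mice 2 and 3 (log2 fold change -0.31, SE 0.21, adjusted p = 0.875). DEP mouse 14 was the lowest of the 4 mice for Tnfaip3 in both classes, while DEP mouse 15 was within the range of the PBS mice.

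The subunit genes were sparse. Nfkb1 in Plac8-high cells was at 95.7 and 100 CPM in DEP mice 14 and 15 and 71.5 and 50.3 CPM in PBS mice 2 and 3, from 16, 24, 8 and 6 UMIs. Both DEP mice were above both PBS mice there (log2 fold change 0.69, SE 0.44, adjusted p = 0.916). In C1q-high cells the groups overlapped, with 67.6 and 52.2 CPM in DEP mice 14 and 15 and 59.2 and 70.2 CPM in PBS mice 2 and 3 (log2 fold change -0.14, SE 0.24, adjusted p = 0.943). Rel was at 138 and 237 CPM in DEP mice 14 and 15 and 98.3 and 193 CPM in PBS mice 2 and 3 in Plac8-high cells, with overlapping groups (log2 fold change 0.38, SE 0.39, adjusted p = 0.945). In C1q-high cells both DEP mice were below both PBS mice, at 141 and 167 CPM in DEP mice 14 and 15 and 194 and 183 CPM in PBS mice 2 and 3 (log2 fold change -0.29, SE 0.17, adjusted p = 0.845).

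Of the cytokines, Tnf was at 227 and 196 CPM in DEP mice 14 and 15 and 250.2 and 143 CPM in PBS mice 2 and 3 in Plac8-high cells (log2 fold change 0.11, SE 0.34, adjusted p = 0.979). In C1q-high cells it was at 214 and 310.2 CPM in DEP mice 14 and 15 and 245 and 224 CPM in PBS mice 2 and 3 (log2 fold change 0.17, SE 0.19, adjusted p = 0.919), with the highest value in DEP mouse 15 and the lowest in DEP mouse 14. Osm in Plac8-high cells spread from 295 CPM in PBS mouse 2 to 797 CPM in PBS mouse 3, and the DEP mice, at 508 and 621 CPM, lay between them (log2 fold change 0.047, SE 0.35, adjusted p = 0.988). In C1q-high cells Osm was at 149 and 164 CPM in DEP mice 14 and 15 and 235 and 145 CPM in PBS mice 2 and 3 (log2 fold change -0.25, SE 0.22, adjusted p = 0.904). The spread between the PBS mice was wider than the difference between the groups for Osm in both classes.

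Pim1 had the smallest p of the members in all 3 cell sets. It was at 586 and 675 CPM in DEP mice 14 and 15 and 1322 and 764 CPM in PBS mice 2 and 3 in Plac8-high cells (log2 fold change -0.72, SE 0.27, adjusted p = 0.861). In C1q-high cells it was at 453 and 437 CPM in DEP mice 14 and 15 and 845 and 442 CPM in PBS mice 2 and 3 (log2 fold change -0.52, SE 0.23, adjusted p = 0.835). PBS mouse 2 was the highest of the 4 mice in both classes, and in C1q-high cells PBS mouse 3 lay between the 2 DEP mice. In Plac8-high cells of PBS mouse 2, 104 of the 148 Pim1 UMIs came from the 19 cells that were also C1q-high. In Plac8-high cells that were not C1q-high the PBS mice were close to each other, at 881 and 857 CPM scaled by total UMIs alone, beside 572 and 654 CPM in the DEP mice, and PBS mouse 2 was below PBS mouse 3 on the TMM scale of the class comparison (752 and 810.1 CPM). Without the cells of both classes the log2 fold change was -0.42 in Plac8-high cells (edgeR, adjusted p = 0.896). Without PBS mouse 2 the log2 fold change was -0.26 in Plac8-high cells (edgeR, adjusted p = 0.932) and 0.0097 in C1q-high cells (adjusted p = 0.994). Without PBS mouse 3 it was -1.07 (adjusted p = 0.00717) and -0.94 (adjusted p = 1.23e-04), fits in which the lone PBS library is assumed to vary like the DEP libraries. In C1q-high cells the difference thus rested on PBS mouse 2. In Plac8-high cells it was smaller without PBS mouse 2 but kept its sign. PBS mouse 2 had the lowest median of UMIs per cell in both classes, and the part of depth was not tested. Thinned to 1000 UMIs per cell, 55.4% of the C1q-high cells of PBS mouse 2 had a Pim1 UMI, against 31.0%, 29.2% and 31.7% in mice 14, 15 and 3.

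Zfp36 in Plac8-high cells was at 1393 and 1504 CPM in DEP mice 14 and 15 and 1573 and 1846 CPM in PBS mice 2 and 3, with both DEP mice below both PBS mice (log2 fold change -0.24, SE 0.21, adjusted p = 0.94). In C1q-high cells it was at 1343 and 1596 CPM in DEP mice 14 and 15 and 1501 and 1510.0 CPM in PBS mice 2 and 3, with an interval of -0.28 to 0.21 for the log2 fold change, the narrowest of the members. Ier3 was at 233 and 408 CPM in DEP mice 14 and 15 and 438 and 411 CPM in PBS mice 2 and 3 in Plac8-high cells (log2 fold change -0.38, SE 0.30, adjusted p = 0.931), and the gap between the groups there was that between 408 and 411 CPM. In C1q-high cells the groups overlapped, with 294 and 435 CPM in DEP mice 14 and 15 and 370.1 and 388 CPM in PBS mice 2 and 3 (log2 fold change -0.052, SE 0.18, adjusted p = 0.978). Groups that did not overlap were common among all genes. Over all retained cells 2 of the 10 members (Rel and Pim1, both lower in DEP) had groups that did not overlap, beside 36.9% of all tested genes. In Plac8-high cells it was 4 of 10 beside 35.9%, and in C1q-high cells 1 of 10 beside 36%. The shares of members were near or below those of all genes.

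**Figure D1:**
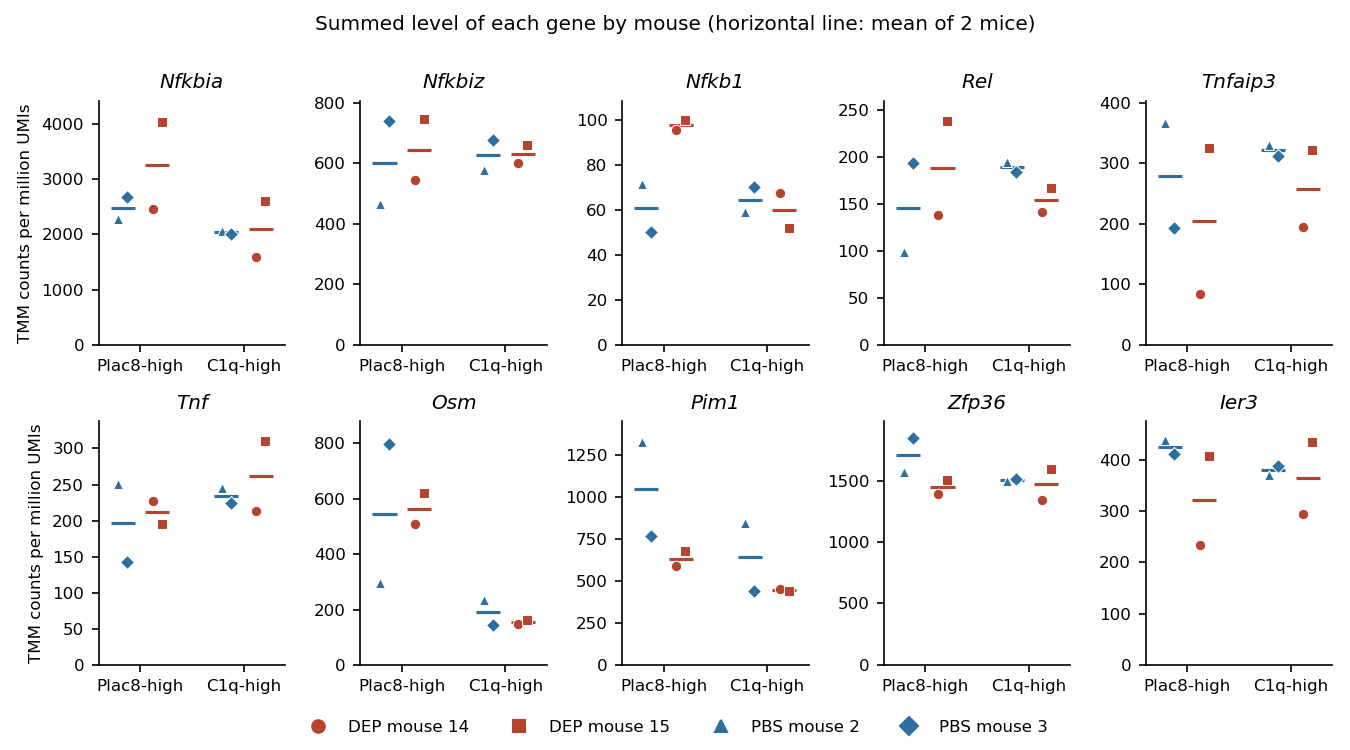
Summed level of each of the 10 genes (vertical axis, CPM on the TMM scale, from 0) in Plac8-high and C1q-high cells, with 1 symbol per mouse, PBS in blue and DEP in red, and a horizontal line at the mean of the 2 mice. Osm lies between 295 and 797 in Plac8-high cells and between 145 and 235 in C1q-high cells, and PBS mouse 2 is the highest for Pim1 in both.

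**Figure D2:**
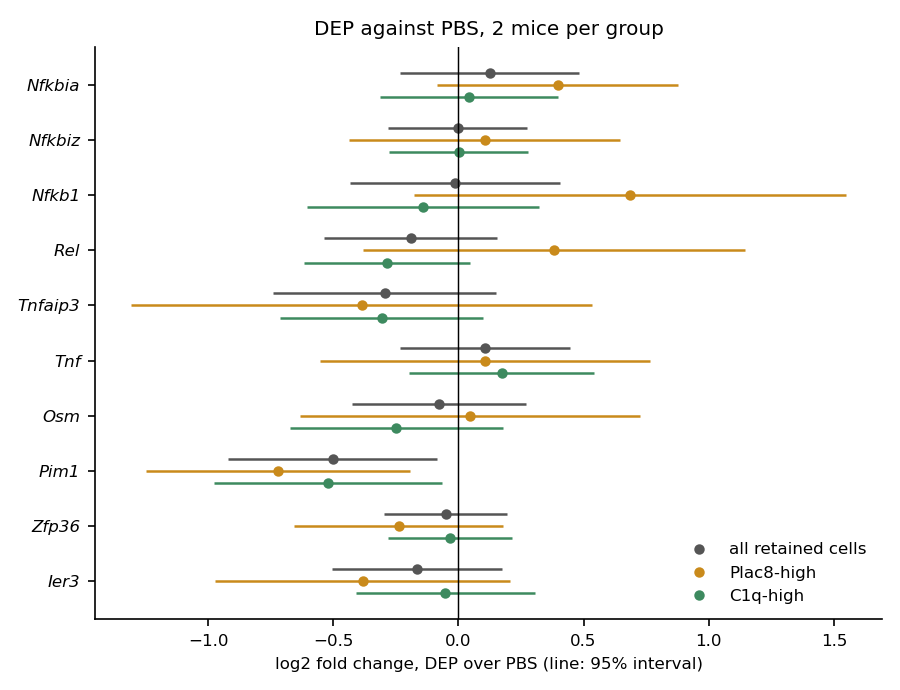
Log2 fold change of DEP over PBS (horizontal axis) for each gene, with points for the estimate and lines for its 95% interval in all retained cells, Plac8-high cells and C1q-high cells. Intervals are widest in Plac8-high cells, and the Pim1 intervals alone leave out 0, at -0.50, -0.72 and -0.52, none of them past the threshold after adjustment.

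The 2 DEP mice lay further apart than the 2 PBS mice for Nfkbia. Over all retained cells DEP mouse 14 was the lowest of the 4 mice for 7 of the 10 members (Nfkbia, Rel, Tnfaip3, Tnf, Osm, Zfp36 and Ier3). Nfkbia was at 1718 CPM in DEP mouse 14 and 2859 CPM in DEP mouse 15, and at 2095 and 2107 CPM in the PBS mice. The 10 members together took 0.514% of the UMIs of DEP mouse 14, 0.695% of those of DEP mouse 15, and 0.622% and 0.608% of those of PBS mice 2 and 3. A list of 40 immediate early and stress genes that tissue digestion is known to induce, such as Fos, Jun and Egr1, was also lowest in DEP mouse 14 and highest in DEP mouse 15: its members, all 40 with UMIs in each mouse, summed to 25138 CPM in DEP mouse 14, 34128 CPM in DEP mouse 15, and 30749 and 31270.5 CPM in the PBS mice. Mitochondrial transcripts took 2.21%, 1.84%, 2.27% and 2.31% of UMIs in mice 14, 15, 2 and 3. The part of digestion in the values of the members was not tested.

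The other genes of the pathway did not pass either. Of 65 further genes of NF-kB signalling (receptors, adaptors, kinases, other subunits and targets), 56 were tested over all retained cells and 0 passed edgeR's test in either direction, with 30 higher, 26 lower and 8 at an unadjusted p under 0.05. In Plac8-high cells 54 were tested, 0 passed (7 at an unadjusted p under 0.05), and 34 were higher with a median log2 fold change of 0.24, beside a median over all genes of -0.00015. The smallest p in Plac8-high cells was that of Sod2, the mitochondrial superoxide dismutase (log2 fold change 1.45, SE 0.32, edgeR adjusted p = 0.419). In C1q-high cells 54 were tested, 0 passed (5 at an unadjusted p under 0.05) and 28 were higher, with a median of 0.03. Of the 40 immediate early and stress genes 35, 33 and 33 were tested in the 3 cell sets and 0 passed in each, with 8, 3 and 8 at an unadjusted p under 0.05. Over all retained cells 26 of those 35 were lower in DEP, with a median of -0.15.

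Within the same mice, Osm was higher in Plac8-high cells and Tnfaip3 was lower, and the other 8 members did not pass. This comparison set the 135 cells that were Plac8-high only against the 678 that were C1q-high only, with the mouse as a block, and neither gene took part in defining the classes. Osm was at 405, 727, 188 and 874 CPM in the Plac8-high cells of mice 14, 15, 2 and 3, and at 114, 177, 251 and 151 CPM in their C1q-high cells. On this TMM scale it was thus higher in Plac8-high cells in 3 of 4 mice and lower in PBS mouse 2. The Plac8-high library of that mouse was 16 cells with 11 Osm UMIs among 49967. Scaled by total UMIs alone, Osm was not lower there, at 220 against 215 CPM. The TMM mean was 549 ± 310.0 CPM against 173 ± 58.0 CPM (SD, n = 4 mice), 3.37-fold in the fit (log2 fold change 1.75, SE 0.20, adjusted p = 5.68e-12, edgeR quasi-likelihood). The call held in all 15 alternative settings, with log2 fold changes of 1.44 to 2.16, the lowest without PBS mouse 3 and the highest without PBS mouse 2. Over all 5527 tested genes 475 were called higher in Plac8-high cells (8.59%) and 646 lower (11.7%), and 13.2% were higher and 24.3% lower in every mouse.

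Tnfaip3 was at 73.7, 321, 256 and 192 CPM in the Plac8-high cells of mice 14, 15, 2 and 3, and at 229, 355, 365 and 354 CPM in their C1q-high cells. On this TMM scale it was lower in Plac8-high cells in 4 of 4 mice, the one member to go 1 way in every mouse. Scaled by total UMIs alone, Tnfaip3 was higher in Plac8-high cells of DEP mouse 15 (330 against 311 CPM) and lower in the other mice. On that plain scale Nfkbia, Osm, Pim1 and Zfp36 were higher in Plac8-high cells in every mouse. The share of all genes that were so was not counted on that scale. Genes in general moved that way, with 64.8% of class calls higher in Plac8-high cells without factors against 42.4% with TMM factors. The TMM means of Tnfaip3 were 211 ± 105 and 326 ± 64.5 CPM (SD, n = 4). Its log2 fold change was -0.63 (SE 0.20, edgeR adjusted p = 0.0143). This call was lost in 6 settings: with DESeq2 (adjusted p = 0.104), after thinning (0.133), without the mouse block (0.113), with no normalization factor (0.226), without DEP mouse 14 (0.192) and without PBS mouse 3 (0.0902). Over the 4 mice alone, an exact two-sided test that flips the signs of the differences in CPM gave p = 0.125 for Tnfaip3, the smallest 4 mice allow, and p = 0.25 for Osm.

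Of the members that did not pass, Nfkbia was at 2449.7, 4089, 1965 and 2590.1 CPM in Plac8-high cells and 1708, 2802, 2306 and 2227 CPM in C1q-high cells of mice 14, 15, 2 and 3 (log2 fold change 0.28, SE 0.13, adjusted p = 0.106). On the TMM scale the Plac8-high value was above the C1q-high value in every mouse but PBS mouse 2. Scaled by total UMIs alone it was above in that mouse too (2302 against 1974 CPM). Without PBS mouse 2 Nfkbia passed (log2 fold change 0.44, edgeR adjusted p = 0.00253). Pim1 on the TMM scale was likewise above in every mouse but PBS mouse 2, at 543, 636, 752 and 810.1 against 491, 461, 849 and 490.5 CPM. Scaled by total UMIs alone, Pim1 was at 881 against 727 CPM in PBS mouse 2. Its log2 fold change was 0.31 (SE 0.15, edgeR adjusted p = 0.14), and 0.46 without PBS mouse 2 (adjusted p = 0.0207). Tnf was at 249, 198, 273 and 139 against 245, 352, 285 and 253 CPM (log2 fold change -0.46, SE 0.20, adjusted p = 0.0984). Rel was at 101, 229.8, 34.2 and 128 against 153, 179, 227 and 198 CPM (log2 fold change -0.40, SE 0.24, adjusted p = 0.261), and Nfkb1, from 36 UMIs in Plac8-high cells, had a log2 fold change of 0.23 (SE 0.30). Nfkbiz, Zfp36 and Ier3 had log2 fold changes of -0.15, -0.17 and -0.13, and these 3 turned positive (0.14, 0.13 and 0.16) when no normalization factor was used. Without DEP mouse 15 Rel passed (-0.98, adjusted p = 0.0182), and without PBS mouse 2 so did Tnf (-0.56, adjusted p = 0.0465). Nfkbia and Pim1 passed also when C1q-high began at 1% of UMIs or no normalization factor was used, Tnf without the gene filter or with all cells kept, and Ier3 after thinning (log2 fold change -0.73, adjusted p = 0.0206). The median of all tested genes was -0.11 with TMM factors and 0.17 without factors, and the 42.4% of calls that were higher in Plac8-high cells became 64.8%.

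**Figure D3:**
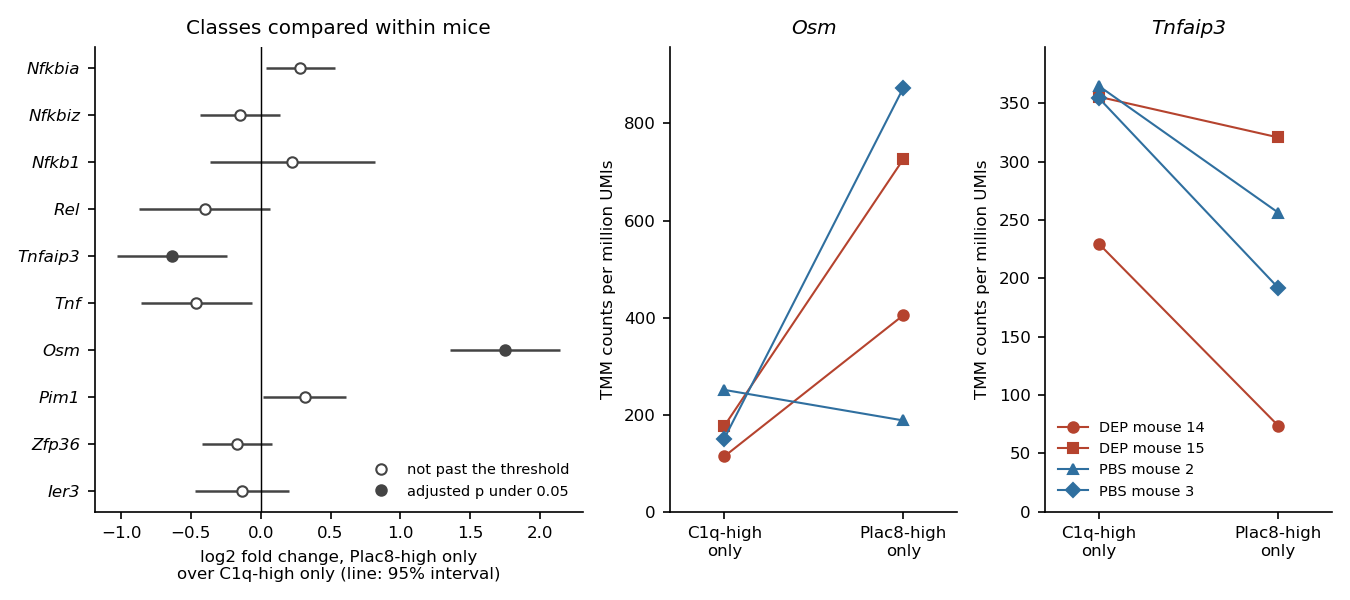
Left, log2 fold change of Plac8-high only over C1q-high only cells (horizontal axis) with its 95% interval, filled where the adjusted p was under 0.05. Middle and right, the level of Osm and Tnfaip3 (CPM on the TMM scale, from 0) in both classes of each mouse, joined by a line: Osm goes from 114 to 405, 177 to 727 and 151 to 874 in 3 mice and goes from 251 to 188 in PBS mouse 2, and Tnfaip3 is lower in all 4.

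Shares of cells gave the same order for Osm in 3 of the 4 mice, PBS mouse 2 being the exception. After each cell was thinned to 1000 UMIs, an Osm UMI was found in 31.9% of the Plac8-high only cells (43 of 135) and 11.8% of the C1q-high only cells (80 of 678), and per mouse in 22.6%, 34.9%, 18.8% and 44.0% against 5.56%, 11.3%, 20.1% and 9.83% of cells of mice 14, 15, 2 and 3. The exact (Clopper-Pearson) 95% intervals of the Plac8-high shares, which cover counting error only, were 9.59% to 41.1%, 23.3% to 48.0%, 4.05% to 45.6% and 24.4% to 65.1%. Unthinned, the shares were 52.6% of Plac8-high only and 28.8% of C1q-high only cells. B or plasma cell-like cells, which a CD11b+ sort should largely lack, here also carried macrophage transcripts (C1qa in 80% of them, Apoe at 26340 CPM). An Osm UMI was found in 6.67% of the 45 thinned cells, all mice pooled (exact 95% interval 1.40% to 18.3%, counting error only). Per mouse it was 0%, 6.25%, 25.0% and 0% of 10, 16, 8 and 11 such cells in mice 14, 15, 2 and 3. Their median was 7015 UMIs per cell before thinning, against 3183 and 4036 in the 2 classes. Tnfaip3 was found in 18.5% against 21.4% of thinned cells and in 22.2% of those with B lineage markers, so its share did not separate the classes. The 52 cells in both classes had Osm at 379 CPM, between the 644 CPM of Plac8-high only and the 147 CPM of C1q-high only cells (plain CPM, all mice summed). At the edge of the Plac8 rule, Osm was at 190 CPM in the 56 cells with 1 Plac8 UMI and at 349.9 CPM in the 18 cells with 2. At the edge of the C1q rule it was at 1044 CPM in the 6 cells with C1q at 0.4% to 0.5% and at 1170 CPM in the 6 cells at 0.5% to 0.6%.

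Genes of the wider pathway were called between the classes in both directions. Of 56 tested pathway genes 13 were called higher and 8 lower in Plac8-high cells. Over all 5527 tested genes 8.59% were called higher and 11.7% lower, the background for these counts and for those of the immediate early genes below. Clec4e, the lectin receptor Mincle, was the gene of smallest p (log2 fold change 4.69, SE 0.20), at 497 to 1230.1 CPM against 22.1 to 52.8 CPM. Plaur, the urokinase receptor, was also higher (log2 fold change 1.63, SE 0.18). Lower in Plac8-high cells were Zfp36l1, a relative of Zfp36 (log2 fold change -1.87, SE 0.23), and Socs3, a cytokine signalling suppressor (log2 fold change -1.05, SE 0.15). Bcl2a1b and Bcl2a1d, anti-apoptotic genes, were lower too, with log2 fold changes of -2.10 and -1.26, but they are near-identical copies and reads may have been split between them. Of 35 immediate early and stress genes 6 were higher and 10 lower. Those of smallest p were Gadd45a (log2 fold change 3.60, SE 0.37), Nr4a1, a nuclear receptor (1.54, SE 0.18), Dnajb1 (-1.64, SE 0.20) and Fosb, an AP-1 subunit (-1.39, SE 0.17). That list of 40 summed to 26346, 36109.6, 36064 and 37110.5 CPM in Plac8-high only cells of mice 14, 15, 2 and 3, and to 25187, 34224, 31557 and 30844 CPM in C1q-high only cells, and its part in the difference of Osm or Tnfaip3 was not tested. Medians were 0.20 for the pathway genes and -0.07 for the immediate early genes, beside -0.11 for all genes.

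Whether the difference between classes depended on DEP was tested as an interaction over the same 8 libraries. Of 5527 genes 16 were called (0.289%), and 0 of the 10 members, with DESeq2 calling 0 genes (55 at an unadjusted p under 0.05) and 0 members. At an unadjusted p under 0.05 in edgeR there were 4 members. Among all 5527 genes ordered by p they stood at rank 100 (Rel), 116 (Nfkbia), 178 (Nfkb1) and 230 (Ier3). Nfkb1 had an interaction of 1.55 (log2, SE 0.68, edgeR adjusted p = 0.699). On the TMM scale its Plac8-high value was above the C1q-high value in both DEP mice (92.1 against 73.1 CPM and 107 against 56.4). It was below the C1q-high value in both PBS mice (51.3 against 64.4 and 32.0 against 77.1). Those Plac8-high values rest on 10, 20, 3 and 3 UMIs. Scaled by total UMIs alone, Nfkb1 was higher in Plac8-high cells of PBS mouse 2 too (60.04 against 55.08 CPM), and lower only in PBS mouse 3. The interactions of Rel (1.25, adjusted p = 0.571), Nfkbia (0.52, 0.592) and Ier3 (-0.68, 0.754) did not pass after adjustment. For Osm it was 0.41 with an interval of -0.22 to 1.04. Of the wider pathway 3 genes were called, all with a more positive DEP effect in Plac8-high cells: Il1b, which encodes interleukin-1 beta (0.87, adjusted p = 0.00767), Bcl2a1d (1.64, 2.02e-04) and Bcl2a1b (2.01, 0.0117). Il1b overlapped between groups in these Plac8-high libraries, at 3214 and 5548 CPM in DEP mice 14 and 15 and 3280 and 2761 CPM in PBS mice 2 and 3. With the cells of both classes kept, none of the 3 passed for DEP in either class. Log2 fold changes of Il1b were then 0.10 (SE 0.24) in Plac8-high and -0.36 (SE 0.17) in C1q-high cells.

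Across single cells the members were spread to different degrees. In C1q-high cells the 73 cells with the most Osm UMIs, 10% of the class, held 67.0% of its UMIs, and for Tnf the share was 52.4%, with 1 cell holding 38 Tnf UMIs. For Zfp36 it was 28.0%, for Nfkbiz 33.2% and for Nfkbia 38.0%. In Plac8-high cells the top 10% (19 cells) held 47.8% of the Osm UMIs and 29.0% of those of Zfp36. The variance of thinned UMIs over their mean was 2.80 for Nfkbia, 2.05 for Ier3 and 1.93 for Osm over all C1q-high cells, where a value of 1 is what counting alone gives. Nfkb1 was at that counting value in C1q-high cells and at 0.98 in Plac8-high cells. It differed between mice for Osm, at 3.33, 2.22, 0.99 and 1.46 in mice 14, 15, 2 and 3, so that PBS mouse 2 was at the counting value. A thinned cell had UMIs of a median of 3 of the 10 members in each mouse over all retained cells, and 5 or more in 16.1%, 24.6%, 23.4% and 25.4% of cells of mice 14, 15, 2 and 3. DEP mouse 14 had the lowest share of such cells also in Plac8-high cells, at 17.0% against 34.2%, 25.7% and 37.5%.

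Nfkbia stood at the centre of the pairs that varied together. In the 730 C1q-high cells, correlated within each mouse, Nfkbia and Nfkbiz had Pearson's r of 0.42, 0.19, 0.24 and 0.45 in mice 14, 15, 2 and 3, with a mean of 0.33. Nfkbia and Tnfaip3 had 0.29, 0.38, 0.19 and 0.41, and Nfkbia and Zfp36 had 0.29, 0.29, 0.14 and 0.51. These are descriptions across cells of 1 library each, which share depth and digestion. Osm was nearly apart from the rest in C1q-high cells, with a mean r of 0.12 with Nfkbia and 0.046 with Tnf. Unthinned, an Osm UMI was found in 30.3% of C1q-high cells, against 88.9% for Nfkbia and 46.8% for Tnf. The part of detection in these r was not tested. In the 187 Plac8-high cells the mean r of Osm with Nfkbia was 0.30 (0.28, 0.18, 0.28 and 0.47), and that of Nfkbia with Tnfaip3 was 0.36. The promoter windows of Nfkbia and Tnfaip3 were shown in full because of this pair, so its r says nothing of the kB matches. The other 5 pairs among the 4 genes with a match had mean r of 0.0053 to 0.20 in C1q-high cells and -0.0038 to 0.29 in Plac8-high cells.

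**Figure D4:**
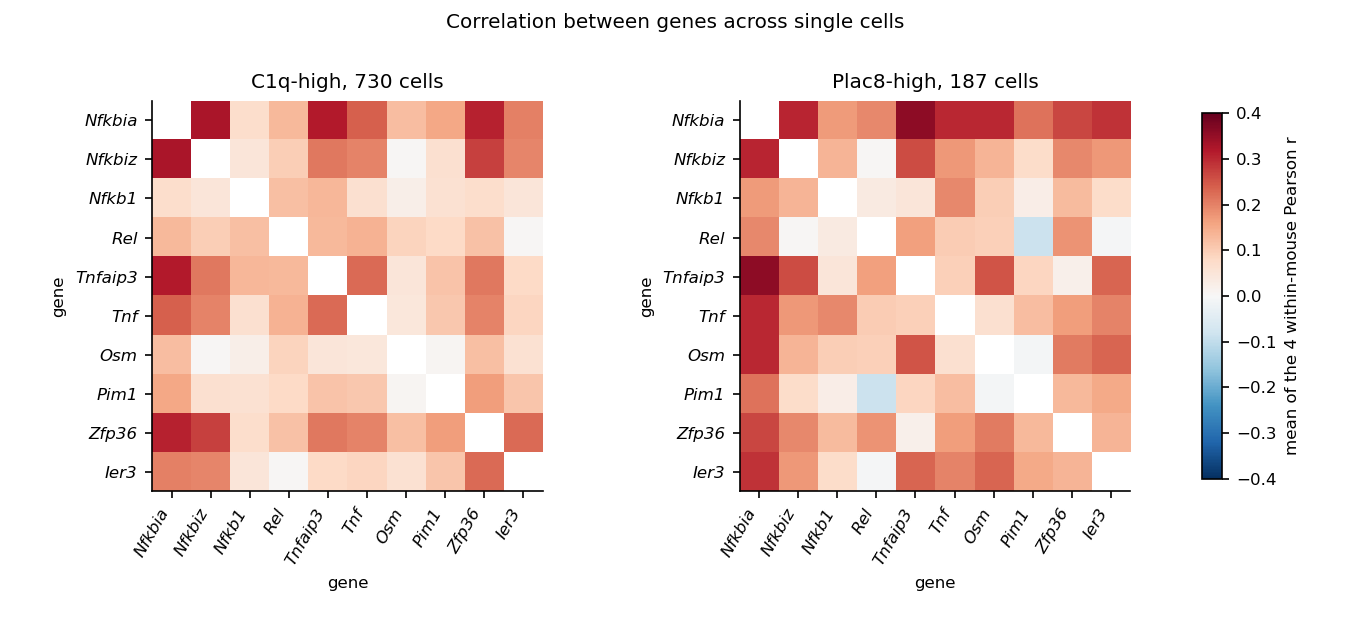
Mean over the 4 mice of the within-mouse Pearson r between each pair of the 10 genes (rows and columns) across C1q-high and Plac8-high cells, with red for positive and blue for negative values and the diagonal left blank. The row of Nfkbia is the darkest, at 0.33 with Nfkbiz in C1q-high cells and 0.36 with Tnfaip3 in Plac8-high cells, and Osm is near 0 with most genes in C1q-high cells.

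The genes outside the 10 whose level was most like the summed members across C1q-high cells, ranked by the mean within-mouse r among 3578 genes, were Cxcl2, Cd83, H3f3b, Junb, Cd14, Ccrl2, Ccl3, Dusp1, Ccl4 and Socs3, from 0.51 for Cxcl2, a neutrophil-attracting chemokine, to 0.32 for Socs3. Cxcl2 was first with r of 0.48, 0.51, 0.41 and 0.63 in mice 14, 15, 2 and 3, beside a median of 0.0076 over the ranked genes. Of these 10, the chemokines Ccl3 and Ccl4 and the receptor Cd14 are known innate response genes, and Junb and Dusp1 stand on the immediate early and stress list.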

How the data were processed

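Deposited values were raw UMI counts per gene and cell in 1 table of 12596 genes; per the labels and the methods of the study, the authors aligned reads to mm10 with Cell Ranger (STAR 2.6.1a), joined the libraries without equalising depth, and kept cells by minimum UMI and gene numbers and mitochondrial share. Columns were assigned to mice by their suffix. The 10 members, the gene lists and the classes were chosen with earlier results of these data known.

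Cells with UMIs of 3 or more markers of 1 other lineage were left out. Per the methods of the study, doublets were screened for by simulation with scran and none were removed, and no doublet caller was run here; leaving out cells of very many UMIs, an alternative, removed 1 cell. Counts were summed per mouse and class, and genes over 1 CPM in 2 or more libraries with a UMI in at least 5% of cells were tested with edgeR 4.0.16 (TMM factors, quasi-likelihood, R 4.3.3), with Benjamini-Hochberg adjustment over all genes and a threshold of 0.05. The class comparison had the mouse as a block, and the interaction was tested in the same kind of fit over 8 libraries. Levels come from each fit, so a class can have slightly different CPM in 2 comparisons. Intervals of a log2 fold change are 95% intervals from its SE. For shares, cells were thinned to 1000 UMIs. Likeness was Pearson's r within each mouse on log values scaled to 10000 UMIs per cell, over genes with a UMI in at least 10% of cells. The fits were tested on simulated data. UMIs count molecules, at depths that differ between mice. The p-values of the edgeR fits rest largely on variance shared across genes. They are thus no measure of the spread of a single gene between mice, in which mouse and well cannot be told apart.

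Alternatives were DESeq2 1.42.0, RLE factors, the likelihood ratio test, no gene filter, all cells, thinning, other class limits, no block and leaving out each mouse; scaling by total UMIs alone was added after seeing the data. Named genes outside the members were those past the threshold in a comparison, at most 6 of smallest p per list, and the 10 most alike in C1q-high cells. Protein sequences were not used here.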

Additional observations from a re-analysis of the deposited data

Results flagged for a closer look

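Nfkb1, the gene of the p105 and p50 subunit, was singled out for its class difference on the TMM scale. This difference went one way in both DEP mice and the other way in both PBS mice. On the log2 scale, Plac8-high minus C1q-high was 0.33 and 0.92 in DEP mice 14 and 15 and -0.33 and -1.27 in PBS mice 2 and 3. The interaction was 1.55 (SE 0.68, edgeR unadjusted p = 0.0226, adjusted p = 0.699) and did not pass. It rests on 10 and 20 UMIs in the Plac8-high cells of the DEP mice and 3 in those of each PBS mouse. Scaled by total UMIs alone, Nfkb1 in PBS mouse 2 went the way of the DEP mice (60.04 against 55.08 CPM). The split by group was thus not seen on that scale.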

How the results depend on the processing

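Osm kept its direction and its call between the classes in all 15 alternatives, and no member was called for DEP against PBS in any alternative except Pim1 without PBS mouse 3 in Plac8-high and in C1q-high cells. In those 2 fits a lone PBS library is assumed to vary like the others. Plac8-high libraries held 119711 to 245253 UMIs over 32 to 73 cells. Of 150 member values between the classes under an alternative, 128 kept direction and call, 6 lost a call (all Tnfaip3), 11 gained one and 5 turned. The cause of these changes was not tested.

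Numbers of genes called for DEP over all retained cells (1) were 7 with the likelihood ratio test, 36 without the gene filter and 0 after thinning, with 0 to 11 when each mouse was left out in turn. In Plac8-high cells (0) they were 5, 18, 2 with all cells kept, 29 without the cells of both classes, and 7 to 41 without each mouse. In C1q-high cells (0) they were 23 without the gene filter, 1 with all cells kept, and 3 to 45 without each mouse. The class comparison (1121) gave 635 with DESeq2, 465 after thinning, which left 2062 genes to test, and 1122 with no replicate block. The interaction (16) gave 0 with DESeq2, 3 with all cells kept, 2 after thinning, and 9 to 21 without each mouse.

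Log2 fold changes of DEP over all retained cells that changed sign were, for Nfkbiz, 0.00080 with RLE factors, 0.0011 with DESeq2, 0.0072 without the gene filter and 0.12 after thinning. For Nfkb1 they were 0.0051 with DESeq2 and 0.29 after thinning, which also gave 0.11 for Tnfaip3, -0.30 for Tnf, 0.00083 for Osm and 0.058 for Zfp36. In Plac8-high cells Nfkbiz was -0.0038 with all cells kept and -0.048 without the cells of both classes, and thinning gave 0.28 for Tnfaip3, -0.32 for Tnf, -0.012 for Osm and 0.012 for Ier3. In C1q-high cells Nfkbiz was -0.0066 without the gene filter and -0.030 without the cells of both classes, and thinning gave 0.17 for Nfkb1, 0.053 for Tnfaip3, -0.17 for Tnf and 0.081 for Zfp36. Between the classes, total UMIs alone gave 0.14 for Nfkbiz, 0.13 for Zfp36 and 0.16 for Ier3.

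Without each mouse in turn, the DEP values over all retained cells ranged from -0.29 to 0.44 for Nfkbia, -0.12 to 0.12 for Nfkbiz, -0.13 to 0.14 for Nfkb1, -0.82 to 0.065 for Tnfaip3, -0.11 to 0.29 for Tnf, -0.34 to 0.13 for Osm, -0.17 to 0.056 for Zfp36 and -0.46 to 0.066 for Ier3. In Plac8-high cells the ranges were -0.016 to 0.71 for Nfkbia, -0.18 to 0.48 for Nfkbiz, -0.098 to 0.96 for Rel, -1.73 to 0.22 for Tnfaip3, -0.25 to 0.57 for Tnf and -0.48 to 0.94 for Osm. In C1q-high cells they were -0.36 to 0.35 for Nfkbia, -0.11 to 0.11 for Nfkbiz, -0.33 to 0.049 for Nfkb1, -0.13 to 0.40 for Tnf, -0.59 to 0.12 for Osm, -0.94 to 0.0097 for Pim1, -0.16 to 0.080 for Zfp36 and -0.37 to 0.19 for Ier3, and between the classes -0.27 to 0.53 for Nfkb1 and -0.31 to 0.026 for Ier3.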

Other observations

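The 15 retained cells that were neither Plac8-high nor C1q-high, 1 and 6 from DEP mice 14 and 15 and 4 each from PBS mice 2 and 3, gave 0.958% of their UMIs to the 10 members, against 0.801% in Plac8-high only cells, 0.643% in cells of both classes and 0.587% in C1q-high only cells (all mice summed). The share was 0.382% and 0.440% in DEP mouse 14 and PBS mouse 2, below the other classes of those mice, and 1.07% in each of DEP mouse 15 and PBS mouse 3. Their median depth of 1812 UMIs per cell was lower than that of the other classes. The 45 B or plasma cell-like cells gave 0.411% of theirs, with Nfkbia in 64.4% and Zfp36 in 55.6% of thinned cells. These cells also had C1qa in 80% and Lyz2 in 91.1% of cells, Apoe at 26340 CPM and a median of 7015 UMIs per cell, and whether the members' UMIs came from B lineage cells was not tested.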
